A study of Homo sapiens with 24 samples.

Results

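The histone genes are the 46 genes of the deposited value table whose symbols begin with HIST1H, HIST2H, HIST3H, HIST4H, H1F, H2AF or H3F, out of 18172 genes with a symbol. Of these, 36 are cluster genes, which are expressed with DNA replication, and 10 are variant genes. By core class there were 5 H1 genes, 15 H2A genes, 9 H2B genes, 8 H3 genes and 9 H4 genes. Among the cluster genes, 25 belong to HIST1, 9 to HIST2, 1 to HIST3 and 1 to HIST4. The array annotation lists 85 names of this kind, and the other 39 were not analysed here. The symbols are those of the array design, and all 46 have changed since, so the current name is given where a gene is first described in detail.

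HCT116 cells, an established line from a human colorectal tumour, were profiled on 24 Illumina arrays. Cells transfected with the control (siMock) or against ATP citrate lyase (siACL) were untreated or received butyrate at 0.5, 2 or 5 mM for 3 days, in a glucose-containing medium. There were 8 groups of 3 arrays, described as biological replicates. All groups were transfected, siMock included, and the small interfering RNA sequences were not used here. ACLY, which encodes ATP citrate lyase, scored 1.52 ± 0.02 (SD, n = 3) in untreated siMock and 1.18 ± 0.02 in untreated siACL, a difference of -0.34 ± 0.02 (SE; adjusted p = 6.3e-08), and the arrays of both groups did not overlap. At 0.5, 2 and 5 mM its mean score was 1.51, 1.37 and 1.31 in siMock and 1.11, 0.95 and 0.68 in siACL, lower in siACL at each dose.

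Histones H2A, H2B, H3 and H4 form the core of the nucleosome, and H1 binds the linker DNA between cores. Cluster genes supply the bulk of histone in S phase, and their messages normally end in a stem-loop bound by SLBP in place of a poly(A) tail, while variant genes are transcribed throughout the cell cycle, mostly into polyadenylated messages, and their products replace the bulk histones at particular sites. Butyrate inhibits histone deacetylases and stops the growth of colon carcinoma cells, and ATP citrate lyase makes the acetyl-CoA used to acetylate histones. The labelling kit named in the labels primes RNA from its poly(A) tail, so for cluster genes the arrays record those messages that were primed all the same; some cluster genes are known to make polyadenylated messages too. How far this set the levels below was not tested.

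Every value is a normal score, that is, the gene's rank on that array turned into the matching quantile of a normal distribution, here between -3.9 and 3.9. Genes at 0 sit mid-array, no fold change can be given, and rises of some genes are necessarily offset by falls of others. Differences are of group means with the SE of a limma fit over all 24 arrays, and calls were made at adjusted p under 0.05 (Benjamini-Hochberg, over the 18172 genes). Arrays correlated at 0.928 to 0.955 within a group and at 0.832 to 0.947 between groups. Precision depended on the level: the median residual SD was 0.416 in the lowest of 4 equal bins of genes by mean score, 0.0333 in the highest bin and 0.142 for the histone genes. Signal over background is unknown, so genes with low scores may not have been detected.

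Promoters of 6 genes are shown because their genes carried the results below: a set of cluster genes that rose, the H4 gene with the largest rise, the linker histone H1C and the variant with the largest fall. Each window runs from 250 bases before to 50 bases after the start of the gene, from RefSeq on GRCh38.p14. It is written 5′ to 3′ on the gene's own strand, and capitals mark the CCAAT box (CCAAT), the TATA box (TATAAA), the octamer (ATTTGCAT), the GC box (GGGCGG) and the H1 box (AAACACA), on either strand.
HIST1H2AC (H2AC6), chr6:26123922-26124221, plus strand: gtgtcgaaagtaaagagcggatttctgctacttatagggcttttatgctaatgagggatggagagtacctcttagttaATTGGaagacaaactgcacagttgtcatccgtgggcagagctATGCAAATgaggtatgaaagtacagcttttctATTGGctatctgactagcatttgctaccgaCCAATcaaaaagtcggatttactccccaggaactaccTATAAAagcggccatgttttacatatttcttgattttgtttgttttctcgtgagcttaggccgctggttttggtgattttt
HIST1H2BD (H2BC5), chr6:26157871-26158170, plus strand: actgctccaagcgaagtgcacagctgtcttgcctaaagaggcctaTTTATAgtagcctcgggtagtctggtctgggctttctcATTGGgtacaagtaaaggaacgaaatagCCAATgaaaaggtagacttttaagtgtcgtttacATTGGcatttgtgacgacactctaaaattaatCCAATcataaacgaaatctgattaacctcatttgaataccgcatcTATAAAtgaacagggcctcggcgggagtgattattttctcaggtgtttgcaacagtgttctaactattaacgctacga
HIST2H2BE (H2BC21), chr1:149886633-149886932, minus strand: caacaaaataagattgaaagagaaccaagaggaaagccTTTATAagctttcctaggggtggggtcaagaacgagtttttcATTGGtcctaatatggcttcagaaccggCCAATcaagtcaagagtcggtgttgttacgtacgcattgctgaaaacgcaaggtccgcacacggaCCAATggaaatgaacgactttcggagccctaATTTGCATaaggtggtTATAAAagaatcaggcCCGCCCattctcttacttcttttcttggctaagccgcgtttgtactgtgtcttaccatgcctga
HIST1H4H (H4C8), chr6:26285485-26285784, minus strand: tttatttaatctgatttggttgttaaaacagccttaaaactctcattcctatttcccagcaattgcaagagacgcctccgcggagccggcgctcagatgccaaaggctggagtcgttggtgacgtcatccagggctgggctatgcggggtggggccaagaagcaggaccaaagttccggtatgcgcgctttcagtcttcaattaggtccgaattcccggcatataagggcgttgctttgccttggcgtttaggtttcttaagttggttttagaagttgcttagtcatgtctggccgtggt
HIST1H1C (H1-2), chr6:26056421-26056720, minus strand: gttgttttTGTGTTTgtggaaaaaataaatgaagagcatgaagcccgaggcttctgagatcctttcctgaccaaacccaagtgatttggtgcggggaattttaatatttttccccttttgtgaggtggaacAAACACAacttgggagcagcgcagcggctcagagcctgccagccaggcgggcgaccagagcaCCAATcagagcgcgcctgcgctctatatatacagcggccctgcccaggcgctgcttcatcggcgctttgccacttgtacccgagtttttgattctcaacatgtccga
H2AFY2 (MACROH2A2), chr10:70052596-70052895, plus strand: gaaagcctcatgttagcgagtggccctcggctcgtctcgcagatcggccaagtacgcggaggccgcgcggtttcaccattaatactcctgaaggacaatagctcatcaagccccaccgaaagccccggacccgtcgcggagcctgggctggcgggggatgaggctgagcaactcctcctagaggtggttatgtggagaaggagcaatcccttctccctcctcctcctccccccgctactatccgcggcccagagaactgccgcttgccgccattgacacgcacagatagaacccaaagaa
The first 3 windows and that of HIST1H1C hold a CCAAT box, and only HIST1H1C among the 6 holds the H1 box. A promoter was matched for 43 of the 46 genes, and no matches of different motifs overlapped in any of them. CCAAT was present in 9 of 9 cluster H2A, 9 of 9 H2B, 5 of 5 H3 and 3 of 3 H1 windows and in 0 of 8 H4 windows, against 34.6% of 35116 promoters in the table. The octamer was in 8 of 9 H2B windows and 6 of 9 H2A windows, against 1.77% of all promoters, and the H1 box was in 3 of 3 cluster H1 windows, against 5.64%. TATAAA was in 23 of 34 cluster windows, against 11.5%, and GGGCGG in 11 of 34, against 45.0%, 6 of these in H4 genes. The windows of HIST1H4H and H2AFY2 held none of the 5 words. Not all windows are separate. HIST1H2AD and HIST1H3D have the same window, counted under both H2A and H3. The sequences of HIST2H4A and HIST2H4B are the same, and those of HIST2H2AA3 and HIST2H2AA4 nearly so. In 3 head-to-head pairs of H2A and H2B genes the windows overlap. A match is a word in the sequence and not a shown binding site.

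**Figure D1:**
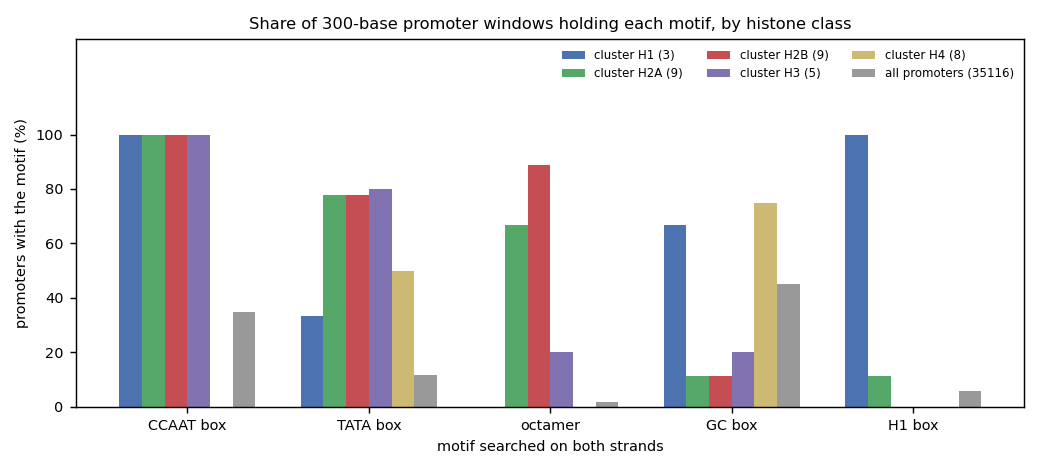
Share of promoter windows (percent) that hold each of 5 motifs on either strand, for the cluster genes of each histone class (number of windows in the key) and for all 35116 promoters in the RefSeq table. The CCAAT box is in every H1, H2A, H2B and H3 cluster window and in 0 of 8 H4 windows. Some genes share a window or have windows of the same sequence.

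A score places a probe on its array and does not say which of 2 genes is expressed more. The mean score over all arrays was above 0 for 10 of 10 variant genes, from 0.15 for H2AFV to 2.37 for H2AFZ, and for 12 of 36 cluster genes. Cluster genes ranged from -1.98 for HIST1H4H to 2.35 for HIST1H4C (H4C3). The 6 cluster H3 genes all had mean scores below 0. Of the cluster genes, 12 passed the test in no comparison, each with a mean score below 0: HIST1H1A, HIST1H1B, HIST1H2AB, HIST1H2AD, HIST1H2AM, HIST1H2BH, HIST1H2BO, HIST1H4B, HIST1H4E, HIST2H2BF, HIST2H3D and HIST4H4.

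In control cells more cluster histone genes rose than fell at each butyrate dose, while variant genes went both ways. The number of cluster genes that rose grew from 0.5 to 5 mM, and so did the share of all genes called higher. At 0.5 mM, 12 of the 46 histone genes rose (26.1%) and 5 fell (10.9%), where 22.1% of all genes were called, 12.0% as higher and 10.1% as lower. At 2 mM, 21 rose (45.7%) and 3 fell (6.52%), where 37.9% of all genes were called, 18.7% as higher and 19.3% as lower. At 5 mM, 21 rose (45.7%) and 6 fell (13.0%), where 50.8% of all genes were called, 25.6% as higher and 25.2% as lower. The share of histone genes that fell at 0.5 mM was close to that of all genes. Among the 36 cluster genes, 7, 15 and 17 rose at 0.5, 2 and 5 mM and 2, 1 and 2 fell, with median differences of 0.11, 0.33 and 0.56; over all genes tested the medians were -0.00758, -0.0102 and -0.013. Among the 10 variant genes, 5, 6 and 4 rose and 3, 2 and 4 fell, with median differences of 0.04, 0.10 and 0.03. The 3 doses share the untreated siMock arrays, so these counts are not independent of each other. Fitted on the 6 arrays compared alone, 6 histone genes were called at 0.5 mM in place of 17.

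HIST1H4H (H4C8), an H4 gene near the bottom of the untreated array, had the largest rise. It scored -2.71, -2.29 and -2.87 in untreated siMock, -2.91, -2.53 and -3.12 at 0.5 mM, -2.17, -1.67 and -1.73 at 2 mM and 0.21, 0.21 and 0.19 at 5 mM. The arrays at 0.5 mM overlapped the untreated ones, those at 2 mM lay above them and those at 5 mM far above both. The difference at 5 mM was 2.83 ± 0.27 (adjusted p = 7.5e-08). At 2 mM it was 0.77 ± 0.27 (adjusted p = 0.032), a call that was lost without untreated replicate 1 or 3 or 2 mM replicate 2 or 3 (adjusted p 0.0837 to 0.118) and on percentile ranks in place of scores (adjusted p = 0.108).

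HIST1H2AC (H2AC6), an H2A gene of the large cluster, scored -0.65, -1.51 and -0.99 in untreated siMock and -0.39, -0.31 and -0.29 at 0.5 mM. It reached 0.17, 0.21 and 0.24 at 2 mM and 0.59, 0.71 and 0.73 at 5 mM. Each dose lay wholly above the one before it. The rises over untreated cells were 0.72 ± 0.14 (adjusted p = 0.00089), 1.26 ± 0.14 (adjusted p = 1e-06) and 1.72 ± 0.14 (adjusted p = 7.8e-09). The untreated siMock arrays were spread more widely (SD 0.43) than those at 0.5, 2 and 5 mM (SD 0.052, 0.035 and 0.076). The SE is pooled over all groups and does not reflect that wider spread. On the arrays compared alone the call at 0.5 mM was lost (adjusted p = 0.122).

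HIST1H2BD (H2BC5), an H2B gene, had some of the tightest values. It scored 0.21, 0.22 and 0.23 untreated, 0.68, 0.67 and 0.65 at 0.5 mM, 0.98, 0.99 and 1.03 at 2 mM and 1.47, 1.51 and 1.48 at 5 mM. No arrays overlapped between any of the 4 siMock groups. Its rises were 0.44 ± 0.02 (adjusted p = 1.2e-10), 0.77 ± 0.02 (adjusted p = 1.7e-14) and 1.26 ± 0.02 (adjusted p = 1.4e-17).

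The H3 genes that rose at 5 mM came from the lower part of the array. HIST1H3H (H3C10) scored -2.25, -1.65 and -1.74 untreated and -0.16, -0.38 and -0.16 at 5 mM, a rise of 1.65 ± 0.15 (adjusted p = 5.7e-08). HIST1H3D (H3C4) scored -2.14, -2.24 and -1.54 untreated and -0.34, -0.08 and -0.46 at 5 mM, a rise of 1.68 ± 0.33 (adjusted p = 0.00031). Neither gene's arrays overlapped between these groups. At 2 mM HIST1H3H rose by 0.73 ± 0.15 (adjusted p = 0.00098), a call lost on the arrays compared alone (adjusted p = 0.0599). HIST1H3D rose by 1.01 ± 0.33 at that dose (adjusted p = 0.022), and its call was lost without untreated replicate 1 or 2 or 2 mM replicate 1 or 3 (adjusted p 0.0554 to 0.103) and on percentile ranks (adjusted p = 0.0748).

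HIST2 genes, which lie in a cluster of their own, made up a large share of the rises. Of these 9 genes 7 rose at 5 mM and 0 fell, where 25.6% of all genes rose and 25.2% fell. HIST2H2AB (H2AC21) scored -2.50, -2.25 and -2.18 untreated and -0.59, -0.08 and -0.32 at 5 mM, a rise of 1.98 ± 0.45 (adjusted p = 0.0012). HIST2H2BE (H2BC21) scored -0.52, -0.24 and -0.05 untreated and 0.83, 0.84 and 0.88 at 5 mM, a rise of 1.12 ± 0.09 (adjusted p = 1.2e-08). HIST2H2AA3 (H2AC18) scored 0.10, 0.11 and 0.24 untreated and 1.27, 1.21 and 1.22 at 5 mM, a rise of 1.09 ± 0.04 (adjusted p = 6.5e-13). In all 3 the treated arrays lay above the untreated ones. HIST2H2AA4, a near-identical copy of HIST2H2AA3, minus that copy gave -0.02 to 0.27 on any array. HIST2H4A exceeded its copy HIST2H4B by 0.01 to 0.59. Probe sequences were not examined, and a probe may report either copy. Both copies of each pair are among the genes that rose, and each copy is a separate gene in all counts of histone genes. HIST2H2AC rose by 0.64 ± 0.03 at 5 mM (adjusted p = 1.9e-12). Its call at 0.5 mM, 0.10 ± 0.03 (adjusted p = 0.012), was lost without untreated replicate 2 or 3 or 0.5 mM replicate 1 (adjusted p 0.053 to 0.066).

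Other cluster genes that rose at 5 mM were HIST1H2BJ (H2BC11), by 1.26 ± 0.33 (adjusted p = 0.0033), HIST1H1C (H1-2), a linker histone gene, by 0.83 ± 0.04 (adjusted p = 2.6e-12), and HIST1H2BK (H2BC12), by 0.38 ± 0.02 (adjusted p = 3e-10). HIST1H1C had risen by 0.22 ± 0.04 at 0.5 mM (adjusted p = 0.00027) and by 0.45 ± 0.04 at 2 mM (adjusted p = 2.7e-08). Its call at 0.5 mM was lost on the arrays compared alone (adjusted p = 0.057). HIST1H2BK had risen by 0.16 ± 0.02 at 0.5 mM (adjusted p = 5.9e-05). HIST1H4K (H4C12) rose by 0.16 ± 0.05 at 0.5 mM (adjusted p = 0.037), lost without untreated replicate 1 (0.0937, adjusted p = 0.211) or 0.5 mM replicate 1 or 3 (adjusted p = 0.136 and 0.0721), and by 0.24 ± 0.05 at 2 mM (adjusted p = 0.0012).

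HIST1H4C, an H4 gene near the top of the array, went the other way. It scored 2.57, 2.66 and 2.63 in untreated siMock, 2.24, 2.18 and 2.19 at 0.5 mM, 2.41, 2.48 and 2.49 at 2 mM and 2.23, 2.17 and 2.21 at 5 mM. All treated arrays lay below all untreated ones, and those at 2 mM lay above those at 0.5 and 5 mM. It fell by 0.41 on the score scale at 0.5 mM (SE 0.03, adjusted p = 3.2e-08), by 0.16 at 2 mM (SE 0.03, adjusted p = 0.00036) and by 0.41 at 5 mM (SE 0.03, adjusted p = 2.2e-09). On percentile ranks, which compress the top of the array, the call at 2 mM was lost (adjusted p = 0.487). HIST3H2A fell by 0.16 at 0.5 mM (SE 0.03, adjusted p = 0.0016) and rose by 0.11 ± 0.03 at 5 mM (adjusted p = 0.0087), the latter lost without untreated replicate 2, where it was 0.0713 (adjusted p = 0.0678). On the arrays compared alone both HIST3H2A calls were lost (adjusted p = 0.102 and 0.0998). HIST1H2BM, named here after its values were seen, differed by -0.96 ± 0.31 at 5 mM (adjusted p = 0.015), but its arrays overlapped between the groups and the call was lost without untreated replicate 1 (-0.694, adjusted p = 0.0927) or 5 mM replicate 3 (-0.537, adjusted p = 0.117) and on percentile ranks (adjusted p = 0.0766).

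**Figure D2:**
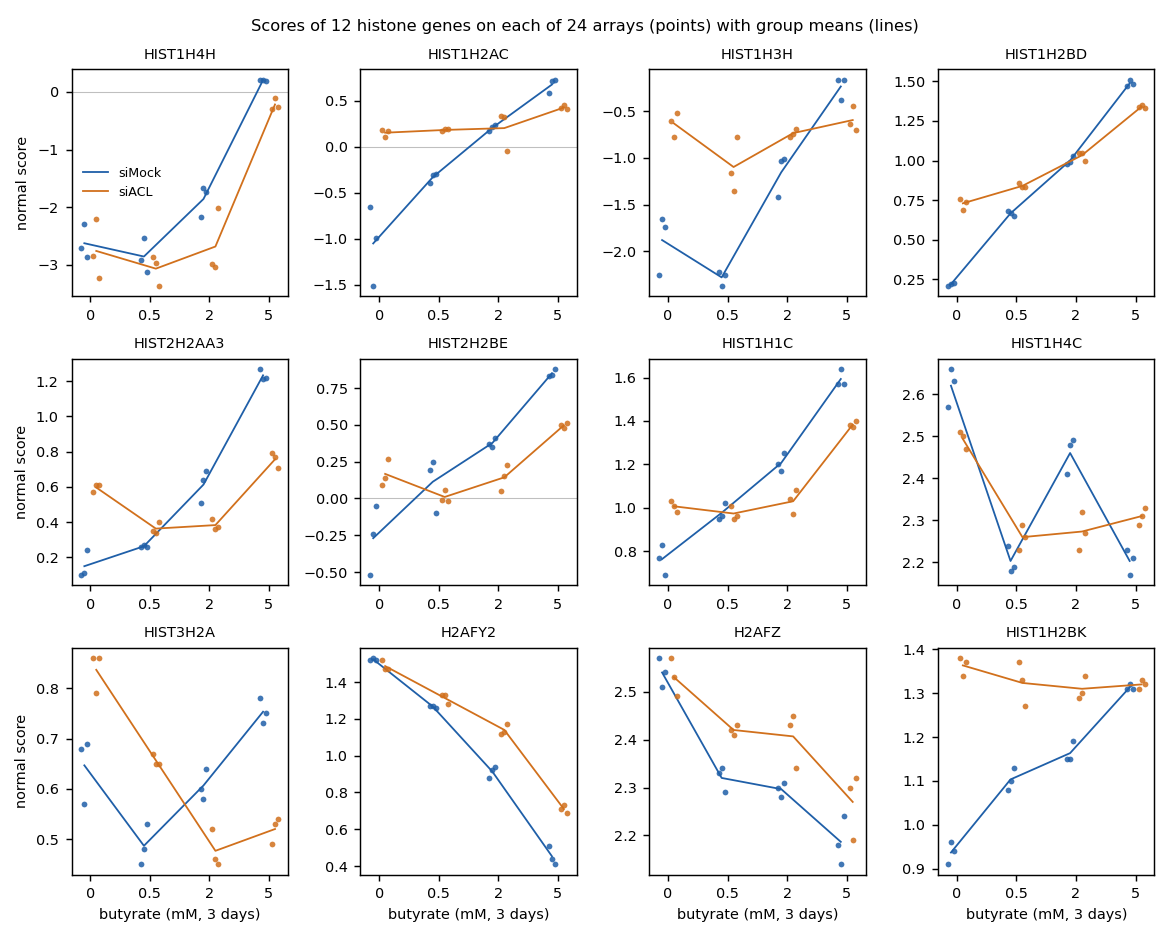
Normal scores (y axes, each on its own range) of 12 histone genes on each of the 24 arrays against butyrate dose in mM, with points for arrays and lines through the means of 3 arrays, blue for siMock and orange for siACL. HIST1H4H rose in both arms at 5 mM, HIST1H2AC, HIST1H3H and HIST1H2BD already stood higher in untreated siACL, and H2AFY2 fell with dose in both arms.

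Steps between doses in siMock showed where the rises fell along the dose. From 0.5 to 2 mM, 15 histone genes rose and 1 fell (10.5% and 11.1% of all genes, 21.6% in all), and from 2 to 5 mM, 15 rose and 7 fell (14.1% and 15.1% of all genes, 29.2% in all). HIST1H4H accounted for the largest rise of the second step, 2.06 ± 0.27 (adjusted p = 1.6e-05). HIST1H3H rose by 1.13 ± 0.15 in the first step (adjusted p = 4.7e-05) and by 0.92 ± 0.15 in the second (adjusted p = 0.00019). H2AFY2 fell in both, by 0.35 (SE 0.03, adjusted p = 6.3e-08) and by 0.46 (SE 0.03, adjusted p = 4.5e-10). Fitted on the 6 arrays compared alone, 10 genes were called in the first step in place of 16.

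Variant genes divided by identity. H2AFY2 (MACROH2A2) encodes a macroH2A associated with silent chromatin. It scored 1.52, 1.53 and 1.52 in untreated siMock, 1.27, 1.27 and 1.26 at 0.5 mM, 0.88, 0.92 and 0.94 at 2 mM and 0.51, 0.44 and 0.41 at 5 mM. Every dose lay below the one before it with no overlap. It fell by 0.26, 0.61 and 1.07 on the score scale (SE 0.03 each, adjusted p = 9.9e-07, 6.6e-12 and 1.5e-15). H2AFY (MACROH2A1), the other macroH2A gene, scored 1.67, 1.66 and 1.68 untreated and 1.65, 1.65 and 1.70 at 5 mM and was not called at any siMock dose.

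H2AFZ (H2AZ1), which encodes the H2A.Z variant found at promoters, scored 2.57, 2.51 and 2.54 untreated and 2.18, 2.14 and 2.24 at 5 mM. It fell by 0.22, 0.24 and 0.35 at the 3 doses (SE 0.04 each, adjusted p = 0.00019, 2.5e-05 and 1.4e-07). The treated arrays lay below the untreated ones at each dose, but on percentile ranks the calls at 0.5 and 2 mM were lost (adjusted p = 0.242 and 0.129). H2AFV (H2AZ2), the other gene for H2A.Z, differed by 0.11 ± 0.04 at 2 mM (adjusted p = 0.026), lost without untreated replicate 2 or 3 or 2 mM replicate 3 (adjusted p 0.063 to 0.107), and was not called at 0.5 or 5 mM. H2AFX (H2AX), whose product is phosphorylated at DNA breaks, scored 0.94, 0.98 and 1.09 untreated and 0.72, 0.62 and 0.58 at 5 mM, a fall of 0.36 (SE 0.04, adjusted p = 1.2e-06) after one of 0.17 at 0.5 mM (SE 0.04, adjusted p = 0.0068) and no call at 2 mM. Its call at 0.5 mM was lost on the arrays compared alone (adjusted p = 0.154).

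The other variants moved upward or little. H1FX (H1-10), a linker histone variant, rose by 0.31 ± 0.04 at 5 mM (adjusted p = 3.7e-06) and H2AFJ (H2AJ), an H2A known to accumulate in senescent cells, by 0.60 ± 0.04 (adjusted p = 3.4e-10). H3F3A (H3-3A) and H3F3B (H3-3B) both encode the H3 variant laid down outside replication. H3F3B rose by 0.10 ± 0.02 at 5 mM (adjusted p = 0.0012), whereas H3F3A rose by 0.09 ± 0.02 at 2 mM (adjusted p = 0.0029) and fell by 0.08 at 5 mM (SE 0.02, adjusted p = 0.0044). On percentile ranks the H3F3A calls were lost at 2 and 5 mM (adjusted p = 0.271 and 0.197). At 0.5 mM the rises of H1FX, H2AFJ, H3F3A and H3F3B, from 0.07 to 0.12, were each lost without any of 4 single arrays (adjusted p 0.0513 to 0.151 over these): H1FX without replicate 2 or 3 of either group, H2AFJ without replicate 1 or 2 of either, H3F3A without untreated replicate 1 or 3 or 0.5 mM replicate 2 or 3, and H3F3B without untreated replicate 1 or 2 or 0.5 mM replicate 1 or 3.

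In siACL cells the shares of cluster genes that rose were near or below those of all genes at every dose. At 0.5 mM, 1 histone gene rose (2.17%) and 5 fell (10.9%), where 7.24% of all genes were called, 4.79% as higher and 2.45% as lower. At 2 mM, 6 rose (13.0%) and 5 fell (10.9%), where 26.5% of all genes were called, 13.7% as higher and 12.8% as lower, so neither share stood out from all genes. At 5 mM, 14 rose (30.4%) and 5 fell (10.9%), where 45.2% were called, 22.7% as higher and 22.6% as lower. Cluster genes accounted for 1, 3 and 8 of these rises (2.78%, 8.33% and 22.2% of 36) and 3, 3 and 3 of the falls (8.33% each), with median differences of -0.03, 0.04 and 0.16, and variant genes for 0, 3 and 6 rises and 2, 2 and 2 falls. Over all genes tested the median differences were -0.00318, -0.0134 and -0.0163. Fitted on the 6 arrays compared alone, 2 histone genes were called at 0.5 mM in place of 6, and 10 were with array weights. The calls lost on those arrays were of H2AFY2, H3F3B, HIST1H2BD and HIST3H2A (adjusted p 0.062 to 0.13).

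HIST1H4H rose in siACL too. It scored -2.84, -2.20 and -3.23 untreated, -2.86, -2.97 and -3.36 at 0.5 mM, -2.99, -3.03 and -2.02 at 2 mM and -0.30, -0.10 and -0.26 at 5 mM. Only the 5 mM arrays lay apart from the rest. The rise at 5 mM was 2.53 ± 0.27 (adjusted p = 4.4e-07). HIST1H2BD rose at each dose, by 0.11 ± 0.02 (adjusted p = 0.0025), 0.30 ± 0.02 (adjusted p = 5.3e-09) and 0.61 ± 0.02 (adjusted p = 2.1e-13). HIST1H1C rose by 0.38 ± 0.04 at 5 mM (adjusted p = 1.2e-07), HIST2H4A by 0.33 ± 0.08 (adjusted p = 0.0025) and HIST2H2BE by 0.33 ± 0.09 (adjusted p = 0.0073). HIST2H2AA3, which had only risen in siMock, fell by 0.23 at 0.5 mM (SE 0.04, adjusted p = 0.002) and by 0.21 at 2 mM (SE 0.04, adjusted p = 0.00092), then rose by 0.16 ± 0.04 at 5 mM (adjusted p = 0.0053). HIST1H3J was called higher at 2 mM, by 0.83 ± 0.21 (adjusted p = 0.0064), and HIST1H4K by 0.19 ± 0.05 (adjusted p = 0.0094), the latter lost without 2 mM replicate 1 (adjusted p = 0.052).

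The falls in siACL were few. HIST3H2A, a single H2A gene outside the main clusters, scored 0.86, 0.79 and 0.86 untreated and 0.49, 0.53 and 0.54 at 5 mM, and fell by 0.18, 0.36 and 0.32 with dose (SE 0.03 each, adjusted p = 0.0018, 1.8e-07 and 2.4e-07). HIST1H4C scored 2.51, 2.50 and 2.47 untreated and 2.29, 2.31 and 2.33 at 5 mM, and fell by 0.23, 0.22 and 0.18 (SE 0.03 each, adjusted p = 8.6e-05, 3e-05 and 6e-05). For both genes all treated arrays lay below the untreated ones. On percentile ranks the 3 HIST1H4C calls were lost (adjusted p = 0.246, 0.161 and 0.205). HIST1H3E differed by -0.28 ± 0.11 at 5 mM (adjusted p = 0.046), lost without any 1 untreated array or 5 mM replicate 1 (adjusted p 0.0503 to 0.246), and without the last it was -0.174.

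The variants of siACL cells followed those of control cells in direction for the larger changes. H2AFY2 fell by 0.18, 0.34 and 0.78 (SE 0.03 each, adjusted p = 0.00026, 1.8e-08 and 1.9e-13), and scored 1.52, 1.47 and 1.47 untreated and 0.71, 0.73 and 0.69 at 5 mM. At 5 mM H1FX rose by 0.28 ± 0.04 (adjusted p = 2e-05) and H2AFJ by 0.30 ± 0.04 (adjusted p = 3.7e-06), and H2AFZ fell by 0.26 (SE 0.04, adjusted p = 9.9e-06; 0.0751 on percentile ranks). H2AFV rose by 0.17 ± 0.04 at 5 mM (adjusted p = 0.0013) and H3F3B by 0.10 ± 0.02 (adjusted p = 0.0015) after a fall of 0.12 at 0.5 mM (SE 0.02, adjusted p = 0.0031). H2AFX was not called against untreated siACL at any dose, and H3F3A neither. H2AFY was called at 0.06 ± 0.02 at 5 mM (adjusted p = 0.025), but its arrays overlapped, and the call was lost without untreated replicate 1 or 3 or 5 mM replicate 2 or 3 (adjusted p 0.0771 to 0.104). From 0.5 to 2 mM in siACL, 6 histone genes rose and 2 fell (7.38% and 6.37% of all genes, 13.8% in all; 3 and 2 on percentile ranks), and from 2 to 5 mM, 10 rose and 3 fell (14.2% and 14.3% of all genes, 28.5% in all), among them HIST1H4H by 2.46 ± 0.27 (adjusted p = 2.6e-06). Fitted on the 6 arrays compared alone, 3 were called from 0.5 to 2 mM in place of 8.

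**Figure D3:**
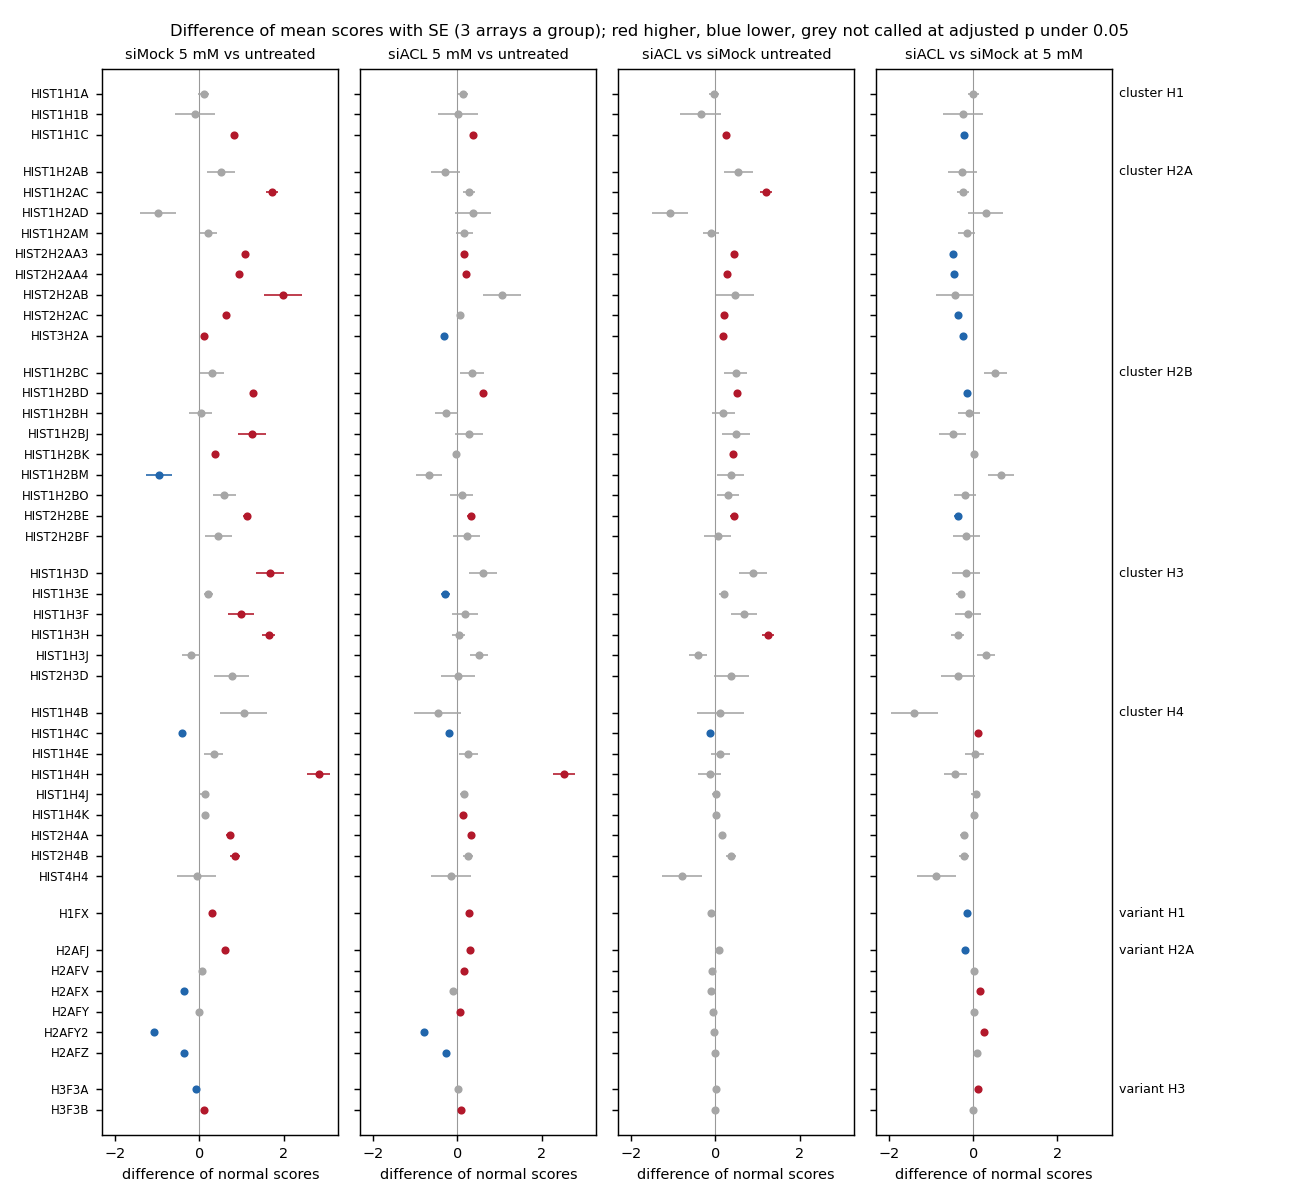
Difference of mean normal scores (x axes) with its SE for the histone genes reported, grouped by kind and class, in 4 comparisons of 3 arrays with 3 arrays. Red and blue points were called higher and lower at an adjusted p under 0.05 and grey points were not called; 17 cluster genes were higher at 5 mM in siMock and 8 in siACL, and 10 were already higher in untreated siACL than in untreated siMock.

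Without butyrate, siACL cells already showed several of the cluster genes at a higher level than control cells. Of the 46 histone genes 10 were higher (21.7%) and 1 was lower (2.17%), where 6.31% of all genes were called, 3.70% as higher and 2.61% as lower. All 11 were cluster genes. Of the 10 variant genes 0 were called in this limma fit, and 4 had an unadjusted p under 0.05. The median difference was 0.23 over cluster genes and -0.03 over variant genes, against 0.00347 over all genes. HIST1H3H scored -0.60, -0.77 and -0.52 in untreated siACL, above the siMock values given above, a difference of 1.25 ± 0.15 (adjusted p = 9.6e-05). HIST1H2AC scored 0.18, 0.11 and 0.17, higher by 1.20 ± 0.14 (adjusted p = 4.5e-05). HIST1H2BD scored 0.76, 0.69 and 0.74, higher by 0.51 ± 0.02 (adjusted p = 1.3e-10). No siACL array of these 3 genes overlapped the siMock arrays. HIST2H2AA3 was higher by 0.45 ± 0.04 (adjusted p = 4.7e-06) and HIST2H2BE by 0.44 ± 0.09 (adjusted p = 0.0085). HIST1H4C was lower, at -0.13 ± 0.03 (adjusted p = 0.017), a call lost without untreated siMock replicate 2 or 3 or untreated siACL replicate 3 (adjusted p 0.059 to 0.0757) and on percentile ranks (adjusted p = 0.76). Fitted on these 6 arrays alone, 2 of the 11 calls remained, those of HIST1H2BD and HIST1H2BK, and the adjusted p of the other 9 was 0.0618 to 0.202.

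The order of the arms turned with dose. At 0.5 mM, 7 histone genes were higher in siACL and 4 lower (9.26% and 8.42% of all genes, 17.7% in all; 7 and 2 on percentile ranks), and the 7 were cluster genes while the 4 were variants. At 2 mM, 3 were higher and 10 lower (10.6% and 8.52% of all genes, 19.1% in all), and at 5 mM, 4 were higher and 9 lower (8.80% and 4.91% of all genes, 13.7% in all; 2 and 9 on percentile ranks). Cluster genes were 1 of the higher and 6 of the lower at 2 mM, and 1 and 7 at 5 mM. Median differences over the cluster genes were 0.07, -0.03 and -0.21 at the 3 doses, and over all genes 0.00163, -0.00238 and 0.00138. Fitted on the 6 arrays compared alone, 7, 2 and 8 histone genes were called at these doses in place of 11, 13 and 13.

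At 0.5 mM the differences of HIST1H3H, 1.18 ± 0.15 (adjusted p = 4.2e-05), HIST1H2BK, 0.22 ± 0.02 (adjusted p = 6.2e-06), and HIST1H2BD, 0.17 ± 0.02 (adjusted p = 1.7e-05), still favoured siACL. HIST1H2AC was higher by 0.51 ± 0.14 (adjusted p = 0.016; 0.0555 without siMock 0.5 mM replicate 1), and HIST1H3D by 1.10 ± 0.33 (adjusted p = 0.028), lost without siMock 0.5 mM replicate 3, where it was 0.725, or any 1 of the siACL 0.5 mM arrays (adjusted p 0.0501 to 0.153). Among the variants lower in siACL were H1FX at -0.30 ± 0.04 (adjusted p = 7.4e-05), H3F3B at -0.20 ± 0.02 (adjusted p = 1.2e-05) and H3F3A at -0.09 ± 0.02 (adjusted p = 0.0097; 0.0537 without siMock 0.5 mM replicate 2). The call of H3F3A was lost on percentile ranks (adjusted p = 0.346). At 2 mM HIST1H2BK was still higher in siACL, by 0.15 ± 0.02 (adjusted p = 0.00027). HIST2H2AA3 was lower there, at -0.23 ± 0.04 (adjusted p = 0.00098), and so were HIST1H4C at -0.19 ± 0.03 (adjusted p = 0.00032; 0.25 on percentile ranks), HIST1H1C at -0.18 ± 0.04 (adjusted p = 0.0023) and HIST3H2A at -0.13 ± 0.03 (adjusted p = 0.0083). HIST1H4H was at -0.83 ± 0.27 (adjusted p = 0.04) with overlapping arrays, a call lost without siMock 2 mM replicate 2 or 3 or siACL 2 mM replicate 1 or 2 (adjusted p 0.112 to 0.162) and on percentile ranks (adjusted p = 0.203). Fitted on the arrays compared alone, every call at 2 mM named in this paragraph was lost (adjusted p 0.0635 to 0.207). HIST2H2AA4, at -0.225 in the main fit (adjusted p = 0.00067), kept its call there.

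At 5 mM HIST2H2AA3 scored 0.79, 0.77 and 0.71 in siACL, below 1.27, 1.21 and 1.22 in siMock. Its difference of -0.48 ± 0.04 (adjusted p = 6.5e-07) was matched by -0.46 ± 0.04 for its copy HIST2H2AA4 (adjusted p = 6.3e-07). HIST2H2AC stood at -0.37 ± 0.03 (adjusted p = 9.7e-08) and HIST3H2A at -0.24 ± 0.03 (adjusted p = 8.1e-05). HIST2H2BE stood at -0.35 ± 0.09 (adjusted p = 0.016; 0.0507 without siMock 5 mM replicate 3). These 5 genes had the largest differences of the cluster genes called lower. They encode H2A or H2B, and the siACL arrays of each lay below the siMock arrays. Also called lower were the linker histone gene HIST1H1C, at -0.21 (adjusted p = 0.00086; 0.0532 on percentile ranks), and HIST1H2BD, at -0.15 (adjusted p = 9.1e-05; 0.0505 on the arrays compared alone). HIST1H4C was higher in siACL by 0.10 ± 0.03 (adjusted p = 0.03), lost without replicate 2 or 3 of either group (adjusted p 0.058 to 0.112) and on percentile ranks (adjusted p = 0.491). Of the variants, H2AFY2 was higher by 0.26 ± 0.03 (adjusted p = 2.4e-06) and H2AFJ was lower, at -0.20 ± 0.04 (adjusted p = 0.0014). The call of H2AFJ was lost on the arrays compared alone (adjusted p = 0.0762).

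The test of the difference between the arms is the interaction, the change in siACL minus the change in siMock at the same dose. At 0.5 mM, 1 histone gene was called above 0 and 7 below (1.39% and 1.72% of all genes, 3.10% in all; 0 and 8 on percentile ranks). At 2 mM, 1 was above and 13 below (3.46% and 2.73% of all genes, 6.19% in all), and at 5 mM, 3 above and 13 below (5.50% and 3.35% of all genes, 8.85% in all). Cluster genes were 5, 10 and 12 of those below 0. At 5 mM the interaction was -1.62 ± 0.22 for HIST1H3H (adjusted p = 0.00012), -1.45 ± 0.20 for HIST1H2AC (adjusted p = 0.00012), -0.93 ± 0.06 for HIST2H2AA3 (adjusted p = 6.1e-08), -0.79 ± 0.13 for HIST2H2BE (adjusted p = 0.00086) and -0.65 ± 0.03 for HIST1H2BD (adjusted p = 6.3e-10). HIST1H4H, with the largest rise in both arms, had an interaction at 5 mM of -0.30 ± 0.38 (adjusted p = 0.74), which was not called. All interactions hold the untreated arrays of both arms, where several of these genes already stood higher in siACL: HIST1H2AC changed from -1.05 ± 0.43 to 0.67 ± 0.08 (SD, n = 3) in siMock and from 0.15 ± 0.04 to 0.43 ± 0.02 in siACL. Untreated siMock arrays enter both the comparison of untreated cells and the interactions, so these results are not independent of each other.

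By class, the rises at 5 mM in siMock took in 6 of 9 cluster H2A genes, 4 of 9 H2B, 3 of 6 H3, 3 of 9 H4 and 1 of 3 H1, where 25.6% of all genes rose. In siACL they were 2 of 9 H2A, 2 of 9 H2B (22.2% each), 0 of 6 H3, 3 of 9 H4 and 1 of 3 H1, where 22.7% of all genes rose. The median score over the 9 cluster H2A genes was -0.18 ± 0.07 (SD of 3 arrays) in untreated siMock and 0.67 ± 0.08 at 5 mM, and 0.15 ± 0.04 and 0.43 ± 0.02 in siACL. For the 9 cluster H4 genes it was -0.49 ± 0.12 and 0.19 ± 0.03 in siMock and -0.39 ± 0.04 and -0.09 ± 0.07 in siACL. For the 6 cluster H3 genes it was -1.32 ± 0.44 and -0.32 ± 0.02 in siMock and -0.68 ± 0.06 and -0.47 ± 0.03 in siACL. For the 9 cluster H2B genes it was -0.75 ± 0.22 and -0.34 ± 0.11 in siMock and -0.50 ± 0.12 and -0.48 ± 0.32 in siACL, where the arrays overlapped. The 3 cluster H1 genes had -0.30 ± 0.24 and -0.20 ± 0.096 in siMock and -0.33 ± 0.077 and -0.19 ± 0.04 in siACL. In these groups the cluster H1 median is the score of HIST1H1A, which was called in no comparison, while HIST1H1C rose in both arms. On the siMock arrays at 2 and 5 mM and on all siACL arrays, the cluster H2A median is the score of HIST1H2AC itself. On replicates 1 and 2 of siMock at 5 mM, the cluster H4 median is that of HIST1H4H. Among variants, the median of the 6 H2A genes was 1.26 ± 0.04 untreated and 0.86 ± 0.03 at 5 mM in siMock, and 1.20 ± 0.02 and 0.84 ± 0.05 in siACL. For the 9 HIST2 genes of all classes the median was -0.34 ± 0.089 and 0.57 ± 0.046 in siMock and 0.01 ± 0.07 and 0.34 ± 0.053 in siACL. At 5 mM in both arms and in untreated siACL, this HIST2 median is the score of HIST2H4A. The medians given here describe the classes and carry no test.

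**Figure D4:**
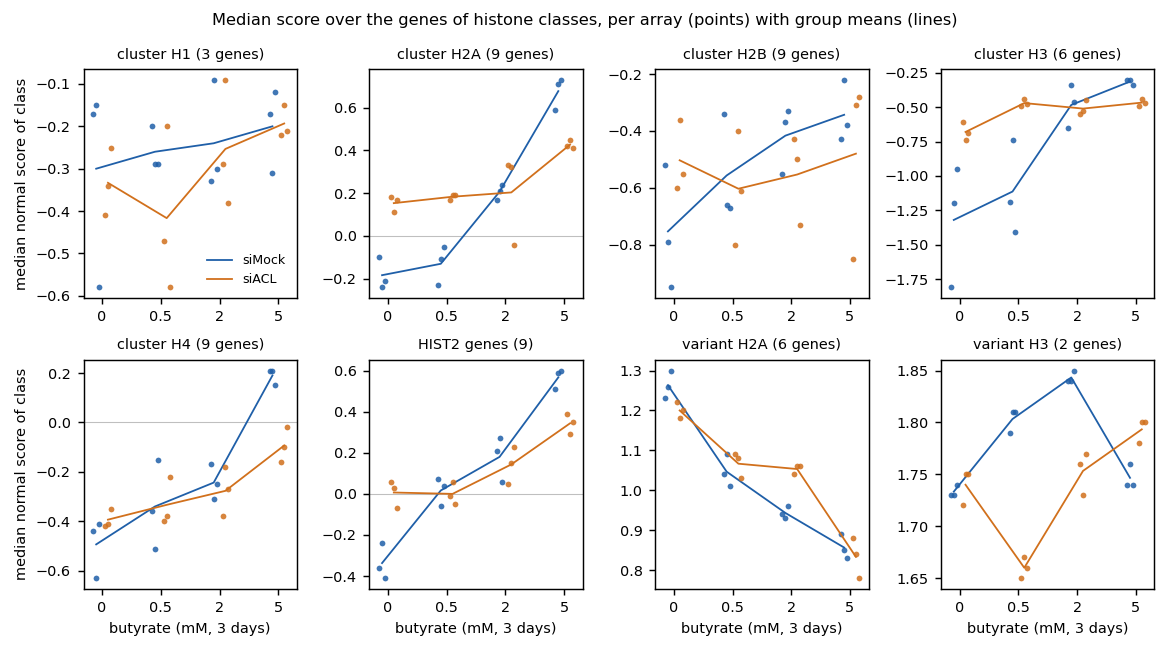
Median normal score over the genes of 7 histone classes and over the 9 HIST2 genes (y axes, each on its own range) on each of the 24 arrays against butyrate dose in mM, with points for arrays and lines through the means of 3 arrays, blue for siMock and orange for siACL. Cluster H2A, H3 and H4 medians were higher at 5 mM than in untreated cells in both arms, and the median of the 6 H2A variants was lower.

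Against untreated cells, S phase genes fell more often than they rose in both arms. S phase genes, in whose phase cluster histones are made, fell in siMock in 22 of 28 cases at 0.5 mM, 15 of 28 at 2 mM and 23 of 28 at 5 mM (10.1%, 19.3% and 25.2% of all genes), and rose in 1, 3 and 0 (12.0%, 18.7% and 25.6% of all genes), with a median difference of -0.28 at 5 mM. From 0.5 to 2 mM in siMock 14 of the 28 rose and 1 fell (10.5% and 11.1% of all genes), a step in which 11 of 36 cluster genes rose and 0 fell. From 2 to 5 mM 0 rose and 21 fell (14.1% and 15.1% of all genes), while 13 cluster genes rose and 3 fell. Thymidylate synthase (TYMS) fell by 0.72 (SE 0.03, adjusted p = 2.7e-13), uracil glycosylase (UNG) by 0.62 (SE 0.03, adjusted p = 2.1e-11), the helicase subunit MCM5 by 0.58 (SE 0.04, adjusted p = 8.9e-10) and the licensing factor CDT1 by 0.55 (SE 0.04, adjusted p = 4.7e-10) at 5 mM. In siACL, 11, 18 and 16 of the 28 fell (2.45%, 12.8% and 22.6% of all genes) and 0, 1 and 4 rose (4.79%, 13.7% and 22.7%). At 5 mM 20 of 28 were higher in siACL than in siMock and 0 lower (8.80% and 4.91% of all genes). The largest of these differences were those of CDC6, RRM2, TYMS and TK1, from 0.28 to 0.54. Fewer cells in S phase and less RNA per cell cannot be told apart in these bulk samples.

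Of 27 genes of histone mRNA synthesis and 3′ end processing, 5 rose and 12 fell in siMock at 5 mM (25.6% and 25.2% of all genes), with a median difference of -0.05. SLBP, the stem-loop binding protein, scored 1.32 ± 0.0061 untreated and 1.30 ± 0.023 at 5 mM (SD, n = 3) and was not called there, after a fall of 0.13 at 0.5 mM (SE 0.02, adjusted p = 4.7e-05). NPAT, the activator of cluster genes, was not called at any dose in siMock, and stood at 0.21 ± 0.10 at 5 mM (adjusted p = 0.09). ERI1, a nuclease that trims histone mRNA ends, fell by 0.53 in siMock (SE 0.03, adjusted p = 9.9e-12) and by 0.47 in siACL (SE 0.03, adjusted p = 9.1e-11); THEX1 is an older name under which the array lists the same gene again, and it was counted once. The kinase CDK2 fell by 0.29 (SE 0.02, adjusted p = 1.9e-08) and the phosphatase CDC25A by 0.24 (SE 0.03, adjusted p = 4.5e-06), while ZNF473, HINFP, MIF4GD and NCBP2 rose by 0.17 to 0.19. At 5 mM 5 of the 27 were higher in siACL than in siMock and 1 lower (8.80% and 4.91% of all genes). Higher were SLBP, ARS2, CDK2, CDC25A and ERI1 at 0.07 to 0.14, and CPSF2 was the lower one, at -0.13 ± 0.04 (adjusted p = 0.046).

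Of 35 genes of histone chaperones and variant deposition, 7 rose and 20 fell in siMock at 5 mM (25.6% and 25.2% of all genes), with a median difference of -0.18. CENPA, the H3 variant of centromeres, fell by 0.77 (SE 0.03, adjusted p = 1.4e-12), and its chaperone HJURP by 0.67 (SE 0.03, adjusted p = 1.1e-11). OIP5, which helps load it, fell by 0.62 (SE 0.04, adjusted p = 4.6e-10), and CHAF1A, of the assembly factor that works at replication forks, by 0.68 (SE 0.17, adjusted p = 0.0021). UBN1, of the HIRA complex, rose by 0.36 ± 0.03 (adjusted p = 2.8e-09), while HIRA itself was at 0.06 ± 0.13 (adjusted p = 0.72). SUPT6H, SPTY2D1 and CDAN1 rose by 0.19 to 0.25. The paralogues ASF1A and ASF1B parted, at 0.18 ± 0.04 (adjusted p = 0.0004) and -0.28 ± 0.03 (adjusted p = 4.4e-07), and NASP, which holds spare H3 and H4, was at -0.03 ± 0.03 (adjusted p = 0.47). At 5 mM 14 of the 35 were higher in siACL than in siMock and 2 lower (8.80% and 4.91% of all genes): HJURP by 0.36 ± 0.03 (adjusted p = 7.5e-07), CENPA by 0.35 ± 0.03 (adjusted p = 8.1e-07), NAP1L1 by 0.29 ± 0.03 (adjusted p = 2.3e-06) and ASF1B by 0.27 ± 0.03 (adjusted p = 1.4e-05), against SUPT6H at -0.15 ± 0.05 (adjusted p = 0.037) and CDAN1 at -0.14 ± 0.03 (adjusted p = 0.0046).

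Mean scores of all 6 epithelial markers measured were above 0 in every group. They lay between 1.35 and 1.88 for EPCAM, 1.10 and 1.38 for CDH1, 1.85 and 2.18 for KRT8 and 2.06 and 2.35 for KRT19, and nearer the middle of the array for CDX2, 0.48 to 0.78, and KRT18, 0.07 to 0.30. Of 7 markers of other cell types, LYZ, PECAM1, VWF and COL1A2 stayed below 0 in every group, while ACTA2 ranged from 0.56 to 1.13 and COL1A1 from -0.01 to 0.57. In siMock at 5 mM 4 of these 7 rose and 0 fell, and of the 6 epithelial markers 1 rose and 3 fell, where 25.6% of all genes rose and 25.2% fell. EPCAM, which the array also lists as TACSTD1, was counted once. Their part in the histone results was not tested.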

How the data were processed

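Gene expression was measured on 24 one-colour Illumina arrays, 3 in each of 8 groups taken from the sample titles. Per the labels' protocols, total RNA was labelled as biotinylated cRNA with the Ambion MessageAmp kit. The deposited value table holds scores: each of its 20747 entries carries the normal score of its rank within the array, as the values themselves show (largest gap to normal quantiles 0.00091). For the authors' background correction, normalization and software, nothing is given in the sources used here. A log2 scale had been foreseen, and differences of scores were tested instead.

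The deposited scanner table gave only the gene annotation, since its 48 measurement columns (24 of signal) could not be tied to samples, so signal over background is unknown. Entries without a symbol (2575) were left out. A limma 3.58.1 model (R 4.3.3) with 1 mean per group was fitted to 18172 genes, with 16 residual degrees of freedom, and p-values were Benjamini-Hochberg adjusted within each of 17 comparisons. The fit was tested on simulated data. Replicates are called biological by the labels, without saying whether they came from separate cultures. No 2 arrays shared more than 0.222% of identical values. The number of arrays limits the precision.

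Symbols were matched to RefSeq, 45 by accession and 1 by symbol, and promoters come from RefSeq on GRCh38.p14. The histone genes and gene lists were chosen with earlier results of these data known. Variants are named except for 1 gene, which enters the counts but whose values are not reported here. Of the cluster genes, those with the largest called differences are named where arrays did not overlap: up to 8 rises and 5 falls per siMock dose, 5 each way per siACL dose and between arms, and 6 per interaction. Of the gene lists, up to 4 each way at 5 mM are named, and entries that RefSeq gives as names of 1 gene were counted once.

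Alternatives were the arrays compared alone, array weights, a trended robust prior, a block for the replicate number, a threshold of 0.01, genes above the middle of the array, percentile ranks, all entries, a minimum difference of 0.25, and leaving out each array in turn.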

Additional observations from a re-analysis of the deposited data

Results flagged for a closer look

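These results drew attention because the change under butyrate differed between siACL and siMock by the interaction test of limma, with an adjusted p under 0.05 over all genes. Each value is the change in siACL minus the change in siMock on the score scale. All of them rest on the untreated arrays of both arms, so they are not independent of each other or of the difference between untreated cells.

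At 0.5 mM the interaction was -0.54 for HIST2H2BE, -0.34 for HIST2H2AA3, -0.33 for HIST1H2BD, -0.25 for HIST1H1C, -0.20 for HIST1H2BK and -0.19 for H3F3B, against 0.18 for HIST1H4C. Of these, 2 depended on single arrays. HIST2H2BE lost its call without any 1 of 9 of the 12 arrays of the 4 groups (adjusted p 0.0505 to 0.0864) and HIST1H4C without any 1 of 8 (0.0532 to 0.0718). The arrays that ended no call were, for HIST2H2BE, replicate 3 of untreated and 0.5 mM siMock and replicate 1 of untreated siACL and, for HIST1H4C, replicate 1 of each group. On the arrays compared alone HIST2H2BE (adjusted p = 0.175), HIST1H4C (0.0865) and HIST1H1C (0.0663) lost their calls, and HIST1H4C did so on percentile ranks (0.724).

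At 2 mM it was -1.21 for HIST1H2AC, -0.83 for HIST1H3H, -0.68 for HIST2H2AA3, -0.67 for HIST2H2BE, -0.51 for HIST2H2AA4, -0.47 for HIST1H2BD, -0.42 for HIST1H1C and -0.32 for HIST3H2A. HIST1H2BK stood at -0.28, HIST2H2AC and H2AFJ at -0.26 each and H3F3B at -0.15, and H2AFY2, which fell in both arms, at 0.26. The call of HIST1H3H was lost without untreated siMock replicate 1, siMock 2 mM replicate 2 or 3, untreated siACL replicate 1 or 3, or siACL 2 mM replicate 1 or 2 (adjusted p 0.0581 to 0.0728), and also with the trended prior (0.122), on percentile ranks (0.111) and on the arrays compared alone (0.1). The last setting also ended the calls of H2AFJ (0.0686), H3F3B (0.0917) and HIST2H2BE (0.0504).

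At 5 mM it was -1.62 for HIST1H3H, -1.45 for HIST1H2AC, -0.93 for HIST2H2AA3, -0.79 for HIST2H2BE, -0.74 for HIST2H2AA4, -0.65 for HIST1H2BD, -0.59 for HIST2H4B and -0.57 for HIST2H2AC. HIST1H1C stood at -0.45, HIST3H2A and HIST1H2BK at -0.42 each, HIST2H4A at -0.39 and H2AFJ at -0.30. Above 0 were H2AFY2 at 0.29, H2AFX at 0.26 and HIST1H4C at 0.23. HIST1H4C lost its call on percentile ranks (adjusted p = 0.461) and H2AFX on the arrays compared alone (0.0544). HIST2H4A lost its call without untreated siMock replicate 3, untreated siACL replicate 1 or 2, or any 1 array at 5 mM (adjusted p 0.0535 to 0.0986), on the arrays compared alone (0.15), on percentile ranks (0.0511) and over all entries (0.0517). HIST2H4B did so without untreated siMock replicate 2 or 3, siMock 5 mM replicate 3, untreated siACL replicate 1 or siACL 5 mM replicate 1 or 2 (adjusted p 0.0524 to 0.0777).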

How the results depend on the processing

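No called difference reversed its sign under any alternative run. Of 249 pairs of a histone gene and a comparison that were called, 108 kept the call under every alternative, 141 lost it under at least 1, and 48 lost it when some single array was left out. The alternative of normalizing the scanner table was not run, because its columns could not be tied to samples. Scores of low genes were less precise, and what signal over background would add is unknown. Where counts moved, the cause was not tested, except that a fit on fewer arrays has fewer residual degrees of freedom and that stricter thresholds call fewer genes by construction.

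Fitted on the arrays compared alone, the counts of histone genes called were 6 in place of 17 for siMock 0.5 mM, 2 in place of 6 for siACL 0.5 mM, 2 in place of 11 between untreated arms, and 7, 2 and 8 in place of 11, 13 and 13 between arms at 0.5, 2 and 5 mM. They were 4 in place of 8 for the interaction at 0.5 mM, 10 in place of 16 for siMock 2 against 0.5 mM and 3 in place of 8 for siACL 2 against 0.5 mM. Array weights gave 10 for siACL 0.5 mM. An adjusted p under 0.01 gave 11 for siMock 0.5 mM and 4 for the interaction at 0.5 mM. Percentile ranks gave 5 for siACL 2 against 0.5 mM. A minimum difference of 0.25 gave 5 for siMock 0.5 mM, 0, 4 and 12 for siACL 0.5, 2 and 5 mM, 7, 4, 1 and 5 between arms untreated and at 0.5, 2 and 5 mM, 4 for the interaction at 0.5 mM, 9 for siMock 2 against 0.5 mM, and 0 and 8 for siACL 2 against 0.5 mM and 5 against 2 mM.

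Leaving out single arrays gave 13 to 17, 22 to 24 and 26 to 29 genes for siMock 0.5, 2 and 5 mM and 6 to 7, 8 to 11 and 17 to 18 for siACL. Between arms it gave 10 to 12 untreated and 9 to 10, 11 to 13 and 9 to 13 at the 3 doses. For the interactions it gave 5 to 8, 13 to 14 and 14 to 17, the lowest of 5 at 0.5 mM without replicate 2 of untreated or 0.5 mM siMock, or replicate 2 or 3 of untreated or 0.5 mM siACL. For the dose steps it gave 12 to 15 and 20 to 22 in siMock and 6 to 9 and 11 to 13 in siACL.

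With the replicate number as a block the 3 siMock counts were 16, 24 and 27, the siACL counts 6, 11 and 17 and the interactions 8, 14 and 16, and all counts stayed within 1.5 times the main ones. The block ended the calls of HIST1H4K at 0.5 mM in siMock (adjusted p = 0.052) and at 5 mM in siACL (0.0506), of HIST1H3E at 5 mM in siACL (0.0635) and of H2AFX from 0.5 to 2 mM in siACL (0.0571). Samples with the same number did not deviate together in these scores: 84 correlations of their deviations ran from -0.04 to 0.03. Whether samples of equal number were cultured or run together cannot be told from this, since the authors' normalization is unknown.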

Other observations

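Head-to-head H2A and H2B genes that share a promoter region are 3 pairs among the matched promoters. At 5 mM in siMock both genes of 1 pair were called, HIST2H2AC at 0.64 and HIST2H2BE at 1.12. In another pair HIST1H2AC was called at 1.72 and HIST1H2BC was not, at 0.30. In the last, HIST1H2AM at 0.22 and HIST1H2BO at 0.60 were both not called. Between untreated arms HIST1H2AC stood at 1.20 and HIST1H2BC at 0.48, of which only the first was called. The difference within a pair was not tested.

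The RefSeq length of a gene is its span on the genome and not the length of its message. HIST2H4B spans 16753 bases and its copy HIST2H4A 396. Cluster genes whose RefSeq gene is longer than 1000 bases numbered 8, of which 5 rose and 0 fell at 5 mM in siMock, with a median difference of 0.65. Of the 28 shorter ones 12 rose and 2 fell, with a median of 0.56. In this comparison 25.6% of all genes rose and 25.2% fell. Of the 17 cluster genes that rose, 14 had a CCAAT box and 7 an octamer in the promoter window. Of the 16 with a matched promoter that were not called, 11 and 7 did. Over all promoters the shares were 34.6% and 1.77%. Among cluster genes all H4 windows and no others lacked CCAAT, so the CCAAT counts only follow histone class. By level, 10 of 12 cluster genes with a mean score above 0 rose and 7 of 24 of those below 0, against 25.6% of all genes. That mean is over all 24 arrays and takes in the treated ones, so the split is not independent of the rises. HIST1H2AC, HIST2H2BE and HIST2H4A scored -1.05, -0.27 and -0.16 in untreated siMock. Over all arrays their means were 0.06, 0.24 and 0.15. Scores of low genes were less precise, and the part of precision in this split was not tested. These splits are descriptions and carry no test.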
